A study of Homo sapiens with 6 samples.

Results

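The peaks described here are all those on chromosomes 16, 17, 19, 20 and 22, which are rich in genes for their length. They were chosen because H3K27me3 peaks were more numerous there in knockout than in wild-type cells, the reverse of most other chromosomes, so that difference is given below as a description and was not tested. After removal of identical lines there were 18649 such peaks of 213235 in 4 lists: 6452 for H3K27me3 in wild type (WT), 7845 for H3K27me3 in knockout (KO), 2351 for EZH2 in WT and 2001 for EZH2 in KO.

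H3K27me3, trimethylation of lysine 27 on histone H3, is placed by Polycomb repressive complex PRC2 through its catalytic subunit EZH2 and marks silent chromatin, often at genes of other tissues and stages. ZCCHC8 is the scaffold of the NEXT complex, which hands short-lived nuclear RNAs to the RNA exosome for decay, and the series asks how NEXT bears on this mark. Around centromeres, chromosomes carry long tandem repeats, chiefly alpha satellite, that are normally packed into a different kind of silent chromatin marked on lysine 9 of histone H3.

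Cells of ACHN, an established human renal carcinoma line, with the genotype ZCCHC8-WT or ZCCHC8-KO were fixed and profiled by chromatin immunoprecipitation and sequencing. The groups used are H3K27me3 in WT, H3K27me3 in KO, EZH2 in WT and EZH2 in KO, with 1 library each, and the labels name 1 input library per genotype. The sample titles mark WT as Ctrl and KO as sgZ8, no treatment is named, and the sources used here do not say whether the KO cells are a single clone. With 1 library per group no difference has a replicate check, and genotype and library cannot be told apart. Intervals below are exact 95% Clopper-Pearson intervals that cover counting error only, and the sources used here give no read depth for the lists.

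Few of these peaks lay at promoters, and those of H3K27me3 lay mostly at promoters poor in CpG in both genotypes. Of 4414 RefSeq promoters on the 5 chromosomes (from 250 bases before to 50 after a transcript start, GRCh38.p14), H3K27me3 peaks touched 4 in WT and 8 in KO, and EZH2 peaks touched 8 and 11. These are 0.0906% and 0.181% of the promoters for H3K27me3 and 0.181% and 0.249% for EZH2, against 0.767% and 0.568%, and 0.688% and 0.483%, on the other chromosomes. The 7 promoters with H3K27me3 in KO only had a median GC content of 39.0% and a median of 1 CpG, against 64.3% and 23 over all 4414. The 3 with H3K27me3 in WT only had medians of 43.7% and 2, and the 1 with it in both had 44.3% and 4. On the other chromosomes these medians were 45.3% and 3 for KO only and 42.0% and 3 for WT only, against 61.7% and 20 over all promoters there. The 9 with EZH2 in KO only had medians of 63.7% and 16, while the 6 with EZH2 in WT only had 52.8% and 5.5 and the 2 with EZH2 in both 52.2% and 6. A gene can enter more than once. SELENOV entered the 9 with EZH2 in KO only through overlapping promoters, and EFCAB3 the 7 with H3K27me3 in KO only through separate ones. The 250 bases upstream of 6 marked starts, 5 marked in KO only and LPO in both genotypes, are shown to let CpG-poor and CpG-rich examples be compared, 5′ to 3′ on the gene's own strand, with capitals for the bases under the KO peak of H3K27me3 (LPO, LAMP5, KRT24 and ASIP) or of EZH2 (NPAS1 and TMEM59L). These 6 were picked after their values were seen, and the sequences are RefSeq's reference, not reads of these cells.
LPO: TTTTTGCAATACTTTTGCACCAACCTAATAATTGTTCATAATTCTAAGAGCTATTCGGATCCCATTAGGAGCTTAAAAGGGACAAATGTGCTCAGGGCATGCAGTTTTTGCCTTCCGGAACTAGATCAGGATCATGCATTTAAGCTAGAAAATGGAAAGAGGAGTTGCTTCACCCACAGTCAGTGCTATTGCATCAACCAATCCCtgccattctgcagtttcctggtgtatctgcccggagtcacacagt
LAMP5: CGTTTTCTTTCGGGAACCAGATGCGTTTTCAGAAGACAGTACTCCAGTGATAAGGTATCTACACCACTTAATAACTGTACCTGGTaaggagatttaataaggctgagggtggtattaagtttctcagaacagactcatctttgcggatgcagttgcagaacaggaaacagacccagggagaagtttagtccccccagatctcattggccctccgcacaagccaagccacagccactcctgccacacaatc
KRT24: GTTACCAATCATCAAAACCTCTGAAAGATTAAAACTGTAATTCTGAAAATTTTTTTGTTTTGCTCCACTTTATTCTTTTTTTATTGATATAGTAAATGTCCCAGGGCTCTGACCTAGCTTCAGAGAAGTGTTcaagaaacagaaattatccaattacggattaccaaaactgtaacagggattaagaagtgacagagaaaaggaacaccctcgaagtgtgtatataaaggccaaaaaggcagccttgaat
ASIP: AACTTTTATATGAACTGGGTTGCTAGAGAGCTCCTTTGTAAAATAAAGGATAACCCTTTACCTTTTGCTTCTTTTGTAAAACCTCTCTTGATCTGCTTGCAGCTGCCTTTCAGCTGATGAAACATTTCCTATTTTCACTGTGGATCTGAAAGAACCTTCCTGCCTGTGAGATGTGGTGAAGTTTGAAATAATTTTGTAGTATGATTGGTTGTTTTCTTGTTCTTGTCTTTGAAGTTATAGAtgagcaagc
NPAS1: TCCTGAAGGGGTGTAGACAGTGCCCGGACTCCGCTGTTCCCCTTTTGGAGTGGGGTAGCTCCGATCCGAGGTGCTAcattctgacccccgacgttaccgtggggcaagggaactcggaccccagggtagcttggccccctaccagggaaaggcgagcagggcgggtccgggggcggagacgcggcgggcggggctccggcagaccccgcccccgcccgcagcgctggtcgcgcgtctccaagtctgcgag
TMEM59L: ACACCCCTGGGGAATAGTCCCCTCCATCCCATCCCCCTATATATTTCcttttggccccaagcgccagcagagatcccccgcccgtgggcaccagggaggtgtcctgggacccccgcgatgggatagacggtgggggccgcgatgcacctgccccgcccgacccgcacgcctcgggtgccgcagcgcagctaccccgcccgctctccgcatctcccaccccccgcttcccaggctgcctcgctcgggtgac

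LPO, the gene of the secreted peroxidase of milk and saliva, lies on the plus strand at chr17:58238334-58238583 (hg38) for the bases shown, and its promoter carried both antibodies in both genotypes. The KO H3K27me3 peak covered 205 of the 250 bases, the WT one 60, the WT EZH2 peak 107 and the KO EZH2 peak 30. LAMP5, a lysosome-associated membrane protein of neurons, at chr20:9514340-9514589 (plus strand), carried both antibodies in KO and neither in WT, with 85 bases under H3K27me3 and 188 under EZH2. KRT24, a type I keratin gene, at chr17:40703753-40704002 (minus strand), and ASIP, which encodes the agouti pigment signal, at chr20:34241173-34241422 (plus strand), carried H3K27me3 in KO only, over 132 and 241 bases, and have 2 and 0 CpG in the stretch shown. NPAS1, a neuronal transcription factor gene, at chr19:47019587-47019836, and TMEM59L, a gene of the nervous system, at chr19:18612620-18612869, both on the plus strand, carried EZH2 in KO only, over 76 and 47 bases, and have 25 and 21 CpG. In NPAS1 and TMEM59L the EZH2 peak covered only the upstream end of the bases shown, before most of the CpG, as the capitals show. The authors' scores of these EZH2 peaks were 4 and 9.

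More H3K27me3 peaks were listed in KO than in WT on each of the 5 chromosomes, while EZH2 peaks were fewer in KO on 4 of them. By covered length EZH2 was lower in KO on 17 and 20 only, with ratios of 1.06 on 16, 1.10 on 19 and 1.08 on 22. H3K27me3 numbered 1999 in WT and 2336 in KO on chromosome 16, 2327 and 2623 on 17, 243 and 341 on 19, 1300 and 1851 on 20, and 583 and 694 on 22. The KO/WT ratio was thus lowest on chromosome 17 (1.13) and highest on 20 (1.42). Chromosome 21, next in order and not included, had 1.06, and chromosome 15 had 0.957. EZH2 numbered 710 and 655 on chromosome 16, 953 and 755 on 17, 147 and 150 on 19, 390 and 301 on 20, and 151 and 140 on 22. Over the 5 chromosomes the ratio was 1.22 for H3K27me3 and 0.851 for EZH2, against 0.715 and 0.618 on the other chromosomes of 1 to 22 and X. Both antibodies thus had a larger part of their KO list here: 6.93% (6.77 to 7.10) of all H3K27me3 peaks in WT and 11.2% (11.0 to 11.5) in KO, and 7.65% (7.36 to 7.95) of EZH2 peaks in WT and 10.2% (9.82 to 10.7) in KO. Median peak widths were 260 bp in WT and 264 bp in KO for H3K27me3 and 204 and 233 bp for EZH2. For EZH2 the direction depended on this and on the length of the lists: the ratio was 0.962 by covered length, 1.46 for peaks of 500 bp or more and 1.29 with lists cut by score to equal size.

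The share on these chromosomes was higher in KO in nearly every class of the authors' score. For H3K27me3 it lay between 6.05% and 11.6% over the 7 classes from a score of 5 up in WT, and between 10.9% and 28.6% over the 8 classes from 4 up in KO. For EZH2 the class of 15 to 19 was the exception, with 9.09% in WT and 7.53% in KO on 18 and 7 peaks. The ratio itself moved with the score. The KO lists begin at a score of 4 and the WT lists at 5, and with scores of 5 or more in both the H3K27me3 ratio was 1.04 here and 0.608 elsewhere. With 7 or more it was 0.508 here and 0.292 elsewhere, and for EZH2 0.287 and 0.198. In absolute terms H3K27me3 was thus more numerous in KO with the low scores included and less numerous with 7 or more. Its ratio was higher here than elsewhere at each of these thresholds. Among the few peaks with a score of 20 or more, H3K27me3 was again more numerous in KO, with 16 in WT and 42 in KO. The chromosomes were chosen on H3K27me3, and the score classes and thresholds divide the same lists. A higher H3K27me3 ratio and KO share here thus largely follow from the choice and are given as a description.

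**Figure D1:**
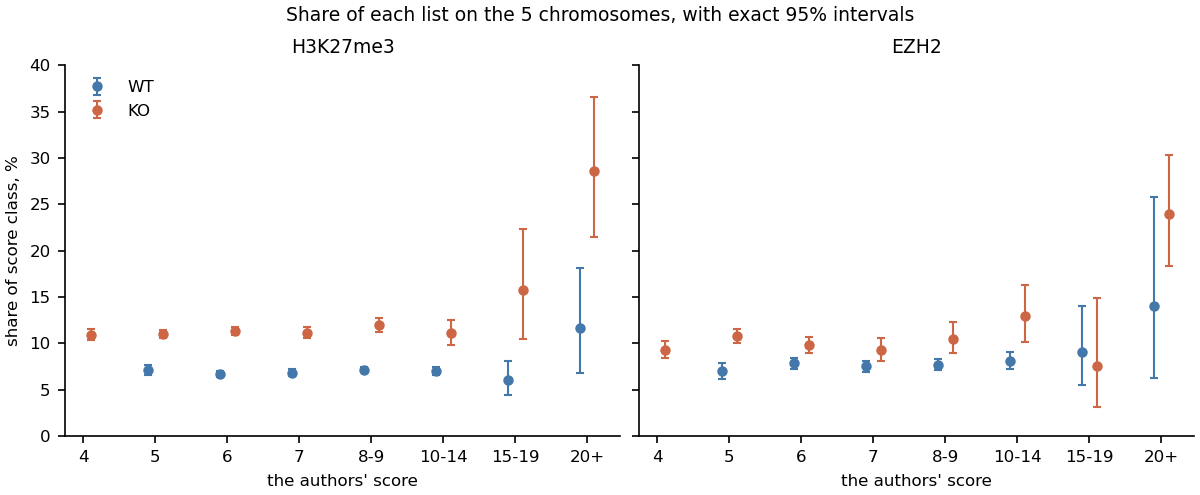
Share of each list's peaks that lies on chromosomes 16, 17, 19, 20 and 22 (y axis, %), by the authors' score (x axis), for H3K27me3 (left) and EZH2 (right) in WT (blue) and KO (orange), with exact 95% intervals. For H3K27me3 all KO points from 5 up lie above the WT points, and in the class of 20 and more the KO share is 28.6%.

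Most of the H3K27me3 surplus over all scores lay along the arms, at a low ratio, and a dense block on chromosome 20 held much of the rest. On each of the 5 chromosomes the longest stretch without a protein-coding gene holds the centromere, and it was taken apart from the rest, called the arms, after the values were seen. In these stretches H3K27me3 had 222 peaks in WT and 635 in KO (ratio 2.86) and EZH2 had 74 and 278 (3.76). On the arms H3K27me3 had 6230 and 7210 (1.16) and EZH2 2277 and 1723 (0.757). EZH2 was therefore more numerous in KO in all 5 gene-free stretches and less numerous on the arms of all 5 chromosomes, while H3K27me3 was more numerous in KO in both parts of all 5. With scores of 5 or more in both lists, however, the H3K27me3 ratio on the arms was 0.982. The arms held 980 of the net 1393 additional H3K27me3 peaks and the stretches 413 (29.6%), of which 340 lay on chromosome 20. On chromosomes 16, 17 and 22 they held 1.78%, 5.41% and 7.21% of the net difference, against 43.9% on 19 and 61.7% on 20.

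**Figure D2:**
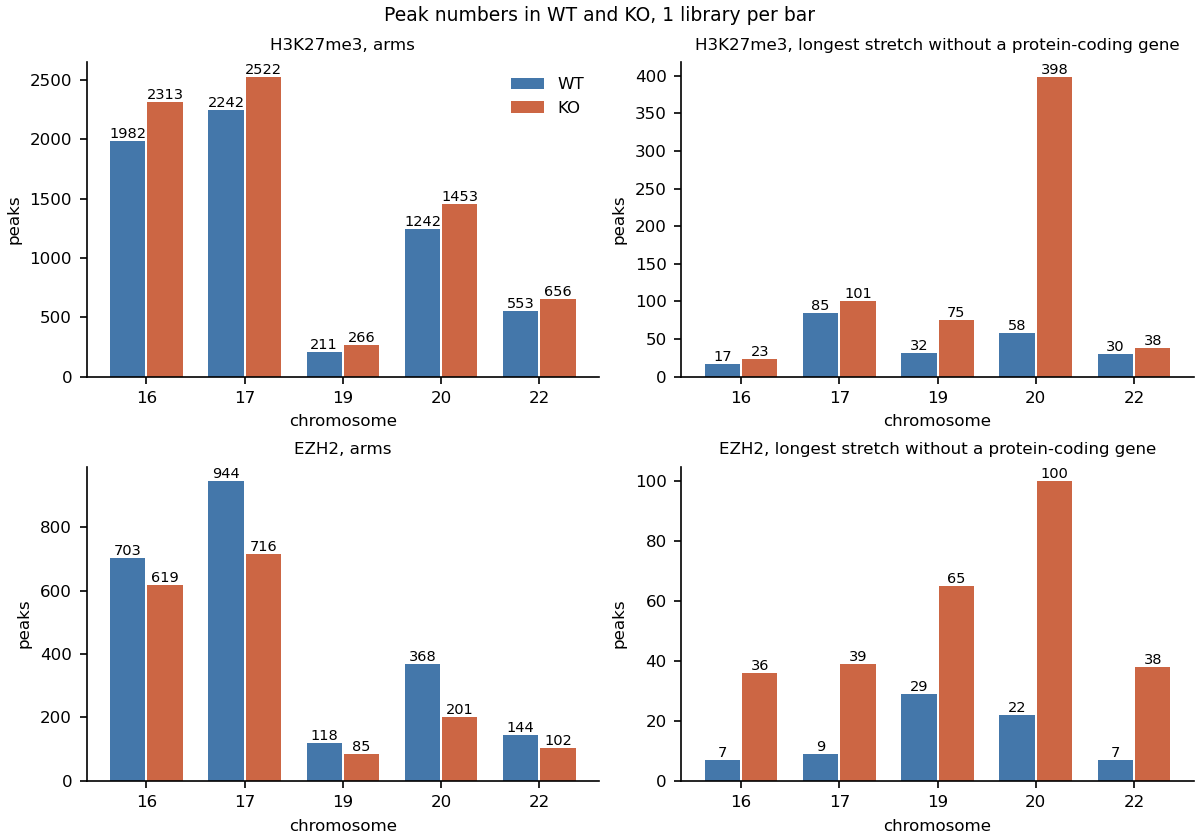
Number of peaks (y axis) per chromosome (x axis) in WT (blue) and KO (orange), on the arms (left) and in the longest stretch without a protein-coding gene (right), for H3K27me3 (top) and EZH2 (bottom), 1 library per bar. EZH2 bars are lower in KO on all arms and higher in KO in all 5 stretches, where chromosome 20 stands out with 398 H3K27me3 peaks in KO against 58 in WT.

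The block on chromosome 20 ran from 26.4 to 28.5 Mb (chr20:26400001-28500000), inside the gene-free stretch. Over these 2.1 Mb H3K27me3 had 18 peaks in WT and 368 in KO, and EZH2 had 3 and 76. Each of its 21 steps of 100 kb held 7 to 24 KO H3K27me3 peaks (median 18) and 0 to 2 in WT, while the steps just before and after it held 0 and 1 in KO. The KO peaks there had a median width of 259 bp and a median score of 6, as did the KO peaks elsewhere on the 5 chromosomes (264 bp and 6), and the highest score was 130. Without this block, whose limits were set after its values were seen, the ratios over the 5 chromosomes were 1.16 for H3K27me3 and 0.820 for EZH2. In hg38 the centromeres are filled with modelled satellite arrays, where short reads align to many near-identical places. The sources used here do not say how such reads were handled, and their part in this block was not tested.

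High scores also gathered in these stretches. Of KO EZH2 peaks with a score of 20 or more, 47 of 50 lay in them, against 3 of 8 in WT, and of KO H3K27me3 peaks 36 of 42, against 6 of 16 in WT. On chromosome 16, a cluster at chr16:34571612-34595789 held 12 KO EZH2 peaks with scores of 71 to 696 and no WT EZH2 peak, with 2 H3K27me3 peaks in KO and none in WT. A second, at chr16:46380810-46401557, held 11 KO EZH2 peaks with scores of 57 to 891, again with none in WT. There, however, H3K27me3 was listed in both genotypes, with 3 peaks in WT and 4 in KO, and the 3 WT peaks already had scores of 486 to 585. On chromosome 17, at chr17:26880951-26885899, EZH2 had 2 peaks in WT and 5 in KO, and H3K27me3 0 and 4. All of these clusters lie in the gene-free stretches that hold the centromere. No input was analysed here, and the sources do not say how reads of repeats were handled. The part of either in these scores was not tested, so the clusters cannot be read as EZH2 gained in KO. The other chromosomes' longest gene-free stretches, which need not hold the centromere, had 215 EZH2 peaks in WT and 648 in KO, and 507 and 578 for H3K27me3. Summed over the other chromosomes, EZH2 was thus more numerous in KO in gene-free stretches too. This did not hold for each of them: EZH2 was less numerous in KO on chromosomes 2, 4 and X, and 21 had no peak there.

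In 1-Mb bins with all scores included, H3K27me3 was raised in KO at many places spread along all 5 chromosomes. A bin was measured with at least 10 peaks in WT and KO together (5 for EZH2), and is called raised where KO had at least 1.5 times as many as WT and lowered in the reverse case. These calls are a fold rule without a test. H3K27me3 was measured in 248 of 350 bins and raised in 67 of them (27.02%), against 10.1% of all measured bins of chromosomes 1 to 22 and X. It was lowered in 23 (9.27%), against 40% of all. Raised bins numbered 19 on chromosome 16, 19 on 17, 6 on 19, 17 on 20 and 6 on 22. These calls rest on the low scores: with scores of 5 or more in both lists 37 bins were raised and 51 lowered. With 7 or more, 8 were raised and 145 lowered. Bins near the limit were 23 to 24 Mb of chromosome 16, just inside with 43 peaks in WT and 65 in KO (1.51), and 15 to 16 Mb of the same chromosome, just outside with 27 and 40 (1.48). Since the chromosomes were chosen on H3K27me3, an excess of raised bins follows from the choice. EZH2 was measured in 243 bins and raised in 49 (20.2%), against 10.1% of all bins, and lowered in 108 (44.4%), against 59.7% of all.

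**Figure D3:**
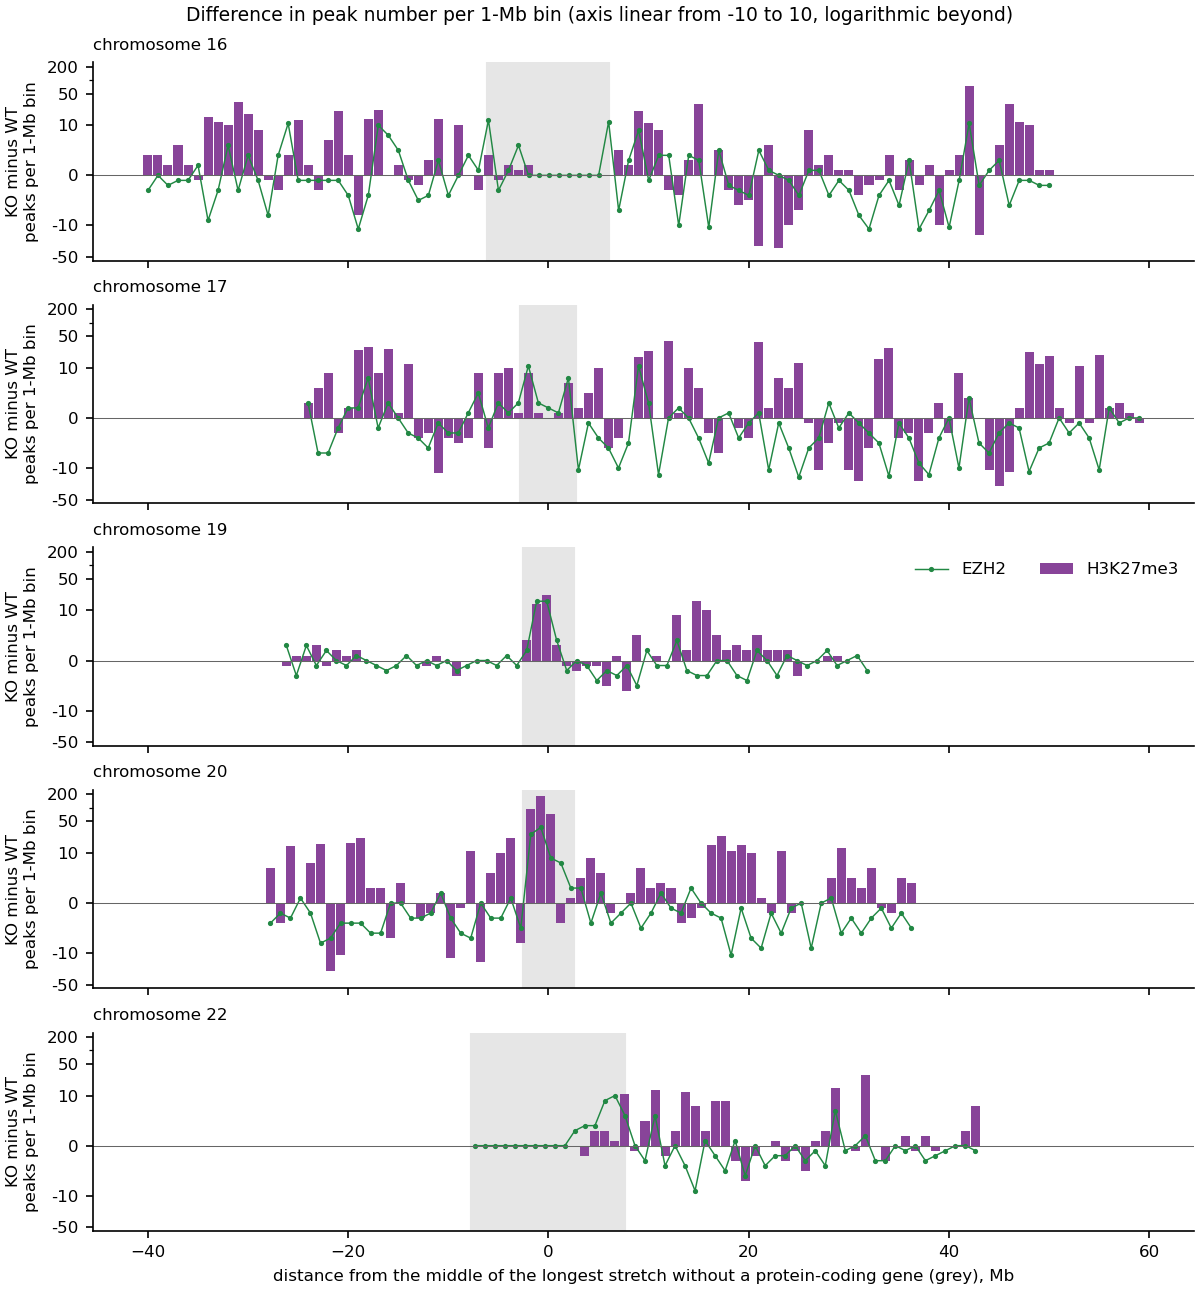
KO minus WT number of peaks per 1-Mb bin (y axis, linear from -10 to 10 and logarithmic beyond) for H3K27me3 (purple bars) and EZH2 (green points and line) along the 5 chromosomes, against the distance in Mb from the middle of the longest stretch without a protein-coding gene (x axis, grey). On chromosomes 19 and 20 both antibodies peak in the grey stretch, with 181 additional H3K27me3 peaks in the highest bin of chromosome 20, and elsewhere the bars are often above 0 where the green line is below.

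EZH2 was not raised wherever H3K27me3 was. Of the 67 bins with H3K27me3 raised, 63 could be measured for EZH2, and EZH2 was raised in 20 (31.7%), lowered in 21 and between in 22. Over all bins measured for EZH2 on these chromosomes it was raised in 20.2% and lowered in 44.4%. Over chromosomes 1 to 22 and X these shares were 10.1% and 59.7%. Summed over the 67 bins, H3K27me3 went from 1009 peaks in WT to 2238 in KO and EZH2 from 563 to 625. The 6 raised bins inside the gene-free stretches were all raised for EZH2 too, with 34 EZH2 peaks in WT and 146 in KO. EZH2 was raised in 17 of the 18 stretch bins measured for it, whatever their H3K27me3 class. In the 61 raised bins of the arms, EZH2 was raised in 14 (24.6% of the 57 measured), lowered in 21 and between in 22. Over all measured arm bins it was raised in 14.2% and lowered in 47.6%. EZH2 had 529 peaks in WT and 479 in KO in these 61 bins (ratio 0.905). That ratio was 0.739 in the 149 arm bins where H3K27me3 was neither raised nor lowered and 0.557 in the 21 arm bins where it was lowered. The order of these ratios is given as a description only, since both antibodies share the inputs of their genotype. Raised bins held a median of 12 protein-coding genes, bins between 8 and lowered bins 3. On the other chromosomes the order was the same, with medians of 8, 6 and 3. Bins of the 5 chromosomes not measured for H3K27me3 held a median of 15.5.

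**Figure D4:**
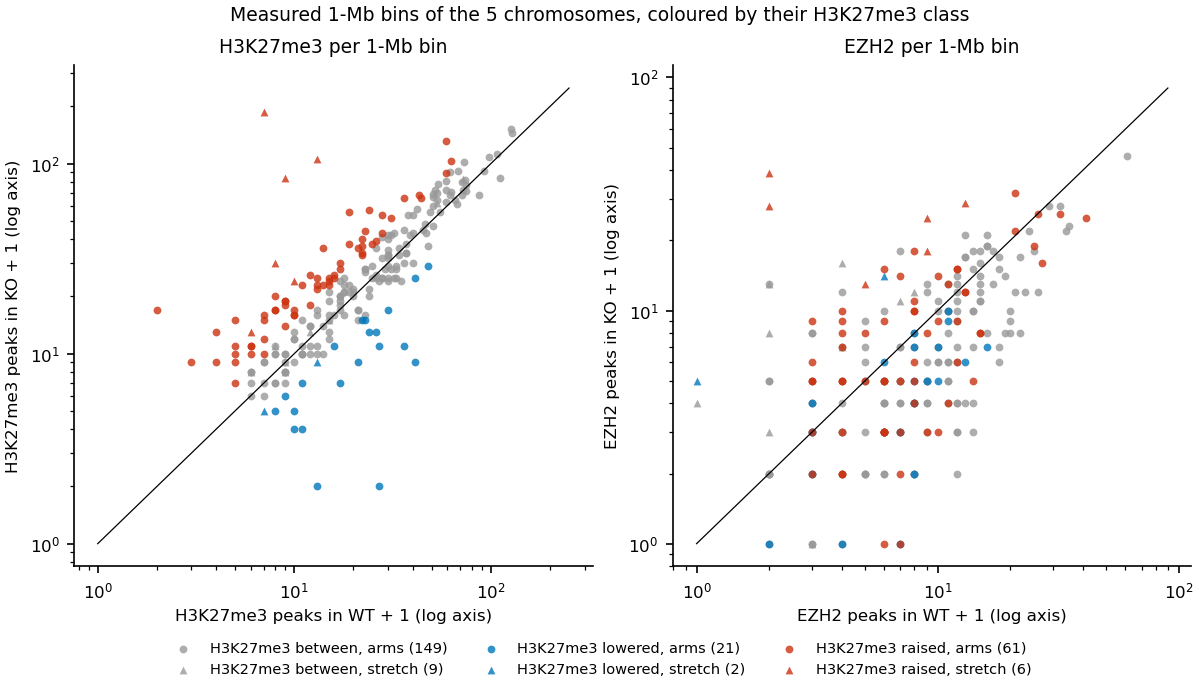
Peaks in KO (y axis) against WT (x axis) per measured 1-Mb bin, with 1 added and both axes logarithmic, for H3K27me3 (left) and EZH2 (right), coloured by the H3K27me3 class of the bin, triangles for gene-free stretches and circles for arms, with the line of equality. Bins with H3K27me3 raised (red, 67) lie on both sides of the line for EZH2, except for the 6 triangles above it.

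On chromosome 16 the largest gain lay beside a cadherin gene and stopped at it. The bin from 82 to 83 Mb went from 58 H3K27me3 peaks in WT to 131 in KO and from 20 to 31 for EZH2, raised for both. Most of this lay between HSD17B2, an enzyme that inactivates oestradiol and testosterone, and CDH13, which encodes an atypical cadherin: over that 528-kb span (chr16:82098535-82626968) H3K27me3 had 49 peaks in WT and 111 in KO, and EZH2 8 and 22. The step with the highest KO number, from 82.4 to 82.5 Mb, held 6 and 33 H3K27me3 peaks and 0 and 7 EZH2 peaks. Inside CDH13 itself, over the next 1174 kb, H3K27me3 went the other way, with 15 peaks in WT and 1 in KO, and EZH2 had 13 and 10. The difference thus had opposite signs on the 2 sides of the start of CDH13. SDR42E1, a dehydrogenase gene on the HSD17B2 side, had 0.875% of the window of 5 kb around its ends covered by H3K27me3 in WT and 9.70% in KO.

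**Figure D5:**
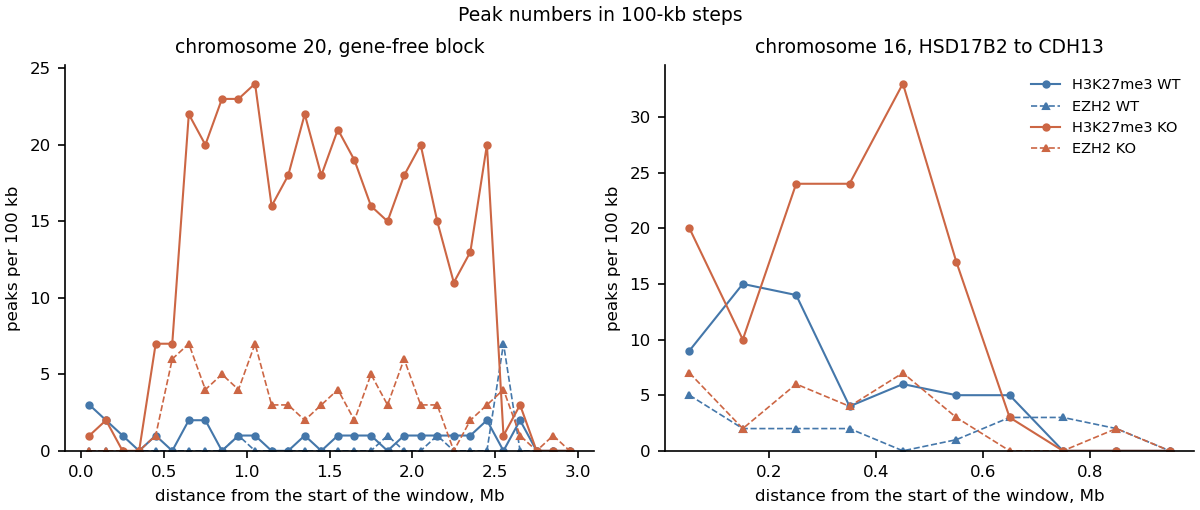
Peaks per 100 kb (y axis) for H3K27me3 (circles, solid lines) and EZH2 (triangles, dashed lines) in WT (blue) and KO (orange), against the distance in Mb from the window's start (x axis), in the gene-free block of chromosome 20 (left) and from HSD17B2 to CDH13 on chromosome 16 (right). In the block KO H3K27me3 stays between 7 and 24 per step where WT stays at 0 to 2, and on chromosome 16 it reaches 33 and then ends at CDH13.

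A longer run on chromosome 16 had more H3K27me3 but not more EZH2 in KO. All 6 bins from 6 to 12 Mb were raised, with 88 H3K27me3 peaks in WT and 185 in KO, while EZH2 had 45 and 39. Within it, GRIN2A, the gene of an NMDA glutamate receptor subunit, had 19 H3K27me3 peaks along its body in WT and 36 in KO, and 6 and 13 EZH2 peaks, although the window at its ends had 1.18% covered by H3K27me3 in WT and none in KO. A second run of 4 bins from 85 to 89 Mb had 58 and 116 H3K27me3 peaks and 55 and 50 EZH2 peaks. It holds FOXF1, a forkhead factor of lung and gut mesenchyme, whose window had no H3K27me3 in WT and 3.19% in KO, and 9.63% and 6.53% for EZH2. The largest deficit on the chromosome, from 63 to 64 Mb, held no protein-coding gene and had 40 and 8 H3K27me3 peaks, with 7 EZH2 peaks in each genotype.

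On chromosome 17 H3K27me3 was more numerous in KO over a chemokine cluster. The bin from 36 to 37 Mb had 62 peaks in WT and 102 in KO, with 25 EZH2 peaks in each. From CCL23 to CCL4 (chr17:36013058-36105614), a span of 92.6 kb that holds several genes of leukocyte-attracting chemokines, 10 and 29 H3K27me3 peaks were listed, and 3 and 5 EZH2 peaks. The covered share of the window went from none to 12.1% for CCL23, from 4.58% to 12.7% for CCL3 and from 1.18% to 11.9% for CCL4. CCL3 and CCL4 have near-identical copies nearby, so their values are uncertain, and so is TBC1D3G of the same bin, at 10.2% and 7.84%. CCL7, a chemokine gene outside that span, went the other way, from 19.7% to 9.60%. The bin from 45 to 46 Mb, with MAPT, the tau gene, had 18 and 55 H3K27me3 peaks and 20 and 21 EZH2 peaks. Along MAPT there were 4 and 14 H3K27me3 peaks and 3 and 4 EZH2 peaks. The bin from 6 to 7 Mb, with the citrate transporter gene SLC13A5 and TEKT1, a tektin gene of cilia, had more peaks of both antibodies in KO, 72 and 101 for H3K27me3 (below the 1.5-fold rule) and 12 and 20 for EZH2.

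In another run of chromosome 17 the antibodies differed in opposite directions. The run from 47 to 50 Mb had 48 and 75 H3K27me3 peaks but 63 and 40 EZH2 peaks, and its last bin had the largest EZH2 deficit of the 5 chromosomes, from 40 to 24. It holds IGF2BP1, an RNA-binding protein of fetal tissues, whose window had 23.6% and 21.1% H3K27me3 and no EZH2 in WT but 5.67% in KO. Over the whole gene with 5 kb on both sides, however, IGF2BP1 had 5 EZH2 peaks in WT and 6 in KO. The bin from 58 to 59 Mb, with LPO, had 125 and 152 H3K27me3 peaks and 60 and 45 EZH2 peaks, but the length covered by H3K27me3 was also lower, at 68299 and 61109 bp. The bin from 69 to 70 Mb, with ABCA9, a lipid transporter gene, was lowered for both, with 26 H3K27me3 peaks in WT and 1 in KO, and 9 and 6 EZH2 peaks.

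Of the measured bins of chromosomes 19, 20 and 22, H3K27me3 was raised in 6 of 15, 17 of 60 and 6 of 28. On 19, the bins from 25 to 27 Mb, within the stretch, went from 16 to 52 H3K27me3 peaks and from 20 to 52 EZH2 peaks. On its long arm the bin from 41 to 42 Mb, with CEACAM5, which encodes carcinoembryonic antigen, had 37 and 53 H3K27me3 peaks (below the 1.5-fold rule) and 17 and 14 EZH2 peaks. On 20, the arm bins from 47 to 49 Mb had 13 and 38 H3K27me3 peaks and 12 and 4 EZH2 peaks. The nearby EYA2, a transcriptional cofactor of eye and kidney development, had 1 and 8 H3K27me3 peaks along the gene, and its window went from none to 7.77%. BMP2, a bone morphogenetic protein, lies in the bin with the largest deficit there, from 6 to 7 Mb, with 35 and 10 H3K27me3 peaks and 12 and 5 EZH2 peaks, and its window went from 10.5% to 0.890%. On 22, the largest gain, from 39 to 40 Mb and below the 1.5-fold rule (61 and 89 H3K27me3 peaks, 10 and 12 EZH2 peaks), was shared by ENTHD1, an epsin-domain gene, with 46 and 60 peaks along the gene, and GRAP2, a T-cell signalling adaptor, with 8 and 19. The bin from 36 to 37 Mb, with CACNG2, the stargazin gene of synapses, was raised for both, with 27 and 42 and with 6 and 13.

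Peaks of the same antibody seldom stood at the same place in both genotypes. Of WT H3K27me3 peaks, 20.9% (19.95 to 21.95) had a KO peak on at least 1 of their bases on these chromosomes, against 15.5% (15.2 to 15.7) elsewhere. In the reverse direction it was 17.6% (16.8 to 18.5) here and 21.9% (21.5 to 22.2) elsewhere. For EZH2 6.98% (5.98 to 8.08) of WT peaks were shared here and 4.97% (4.72 to 5.23) elsewhere, and in the reverse direction 8.15% (6.98 to 9.43) here and 7.94% (7.55 to 8.35) elsewhere. How much 2 libraries of 1 genotype would share cannot be told from these lists. EZH2 peaks on an H3K27me3 peak of the same genotype were 10.3% (9.13 to 11.6) in WT and 17.7% (16.1 to 19.5) in KO, against 14.3% (13.9 to 14.7) and 19.2% (18.6 to 19.7) on the other chromosomes. In the gene-free stretches that share was 12.2% (5.72 to 21.8) and 32.4% (26.9 to 38.2), and on the arms 10.3% (9.06 to 11.6) and 15.4% (13.7 to 17.2). Each genotype has 1 input for both antibodies, and its part in the overlap was not tested.

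By position, H3K27me3 peaks mostly lay away from genes in both genotypes. Farther than 5 kb from any protein-coding gene lay 62.2% (61.0 to 63.4) of WT and 64.5% (63.4 to 65.5) of KO peaks, inside a gene 25.7% and 24.2%, and within 5 kb of a gene end 12.1% and 11.3%. For EZH2, 48.4% (46.3 to 50.4) of WT and 55.9% (53.7 to 58.1) of KO peaks lay farther away. The 164 WT EZH2 peaks that overlapped a KO peak were different, with 52.4% (44.5 to 60.3) within 5 kb of a gene end, against 19.2% (17.6 to 20.9) of those that did not. H3K27me3 showed no such split, with 12.1% in either case.

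Around gene ends more genes carried H3K27me3 in KO than in WT with all scores included, and fewer carried EZH2. Of 4396 protein-coding genes on the 5 chromosomes, H3K27me3 lay within 5 kb of an end of 459 in WT (10.4%, against 19.6% of all genes) and of 503 in KO (11.4%, against 17.1%), with 273 in both. EZH2 lay there at 382 in WT (8.69%, against 15.1%) and 292 in KO (6.64%, against 9.93%). With scores of 7 or more in both lists the H3K27me3 direction turned, with 381 genes in WT and 194 in KO. For EZH2 these numbers were 299 and 85. The H3K27me3 covered share was higher in KO for 376 genes (8.55%, against 10.6% of all genes) and lower for 313 (7.12%, against 14.4%). Any difference counts here, so single peaks enter. EZH2 was higher for 218 (4.96%, against 7%) and lower for 320 (7.28%, against 12.6%). Of the 376 genes with more H3K27me3 in KO, EZH2 was higher at 75, lower at 90 and equal at 211, with mean EZH2 covered shares of 0.971% in WT and 0.940% in KO. Of the 313 with less H3K27me3 in KO, EZH2 was higher at 55 and lower at 77 (0.736% and 0.592%), and of the 3707 with none in either genotype it was higher at 88 and lower at 153 (0.0743% and 0.0517%).

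Among single genes, the largest H3K27me3 excess in KO lay at LPCAT2, an enzyme that makes platelet-activating factor, where it covered 2.34% of the window in WT and 16.5% in KO. EZH2 covered none and 1.05% of that window, with 1 and 2 peaks over the whole gene with 5 kb on both sides. KRT9, the keratin of palms and soles, had none and 12.6% with no EZH2 in either genotype. LRRC75A had 1.66% and 11.8%, EFCAB3 2.36% and 12.4%, ENTHD1 8.50% and 16.2% and CACNG1, a calcium channel subunit of muscle, 1.37% and 9.50%. SLC35G3, at 1.72% and 10.7%, belongs to a family of near-identical copies and is uncertain. The 12 genes with the largest excess came from chromosomes 16, 17, 20 and 22 and none from 19. Among deficits, the largest lay at RNF43, a ligase that removes WNT receptors from the cell surface, with 25.5% and 4.15%. EZH2 covered 1.36% and none of its window, with 9 and 1 peaks over the whole gene with 5 kb on both sides. WFDC10A, a protease inhibitor gene of the male tract, had 12.6% and 1.75%, and H2BN1, a histone gene, 11.1% and none. KRTAP9-7 (27.8% and 7.48%), NACA2 (17.8% and 3.09%) and CCDC144A (17.7% and 6.33%) have near copies and are uncertain.

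The largest EZH2 excess lay at NEUROD2, a neuronal differentiation factor, with 17.3% of the window in WT and 32.9% in KO, with H3K27me3 at 2.02% and 3.02%. IRX5, an Iroquois homeobox factor, had 1.33% and 11.5%, TOX3, a factor of brain and breast, 7.19% and 13.1%, and NPAS1 1.44% and 6.76%. ALOX15, a lipoxygenase gene, had 7.09% and 16.9%, and PMP22, of peripheral myelin, none and 4.23%, with H3K27me3 at none and 4.69%. The largest EZH2 deficits were as varied. TNRC6C, of microRNA silencing, had 13.6% and 4.57%, GNAO1, a G protein subunit of neurons, 11.4% and 2.99%, and NGFR, a neurotrophin receptor, 14.1% and 6.06%. SSTR2, a somatostatin receptor, had 10.7% and 5.64%, and GAS2L1 4.98% and none. At NGFR and SSTR2 H3K27me3 was higher in KO while EZH2 was lower, with 1.45% and 6.24%, and none and 1.75%.

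Genes were also grouped by function. Over all 4396 genes 10.4% were marked by H3K27me3 in WT and 11.4% in KO, and 8.69% and 6.64% by EZH2. The lists were chosen with earlier results of these data known, and the median difference was 0 in each of them and over all genes, since most members had no peak. Of 55 immune and blood genes, 15 were marked by H3K27me3 in WT (27.3%) and 22 in KO (40%), while EZH2 marked 9 in each. H3K27me3 was higher in KO at 18 (32.7%) and lower at 9 (16.4%), against 8.55% and 7.12% over all 4396 genes. These 18 are not all separate places, since CCL23, CCL18 and CCL4 lie together in the chemokine span above, and CCL4 is uncertain. Besides the chemokines, IKZF3, a lymphocyte factor, had 16.8% and 11.2%. Of 27 kidney genes 9 (33.3%) and 12 (44.4%) were marked by H3K27me3, 10 higher (37.0%) and 3 lower (11.1%), and 5 and 6 by EZH2. ACE, angiotensin-converting enzyme, went from 1.27% to 4.55% H3K27me3 and from 2.18% to no EZH2, and WFDC2 from 8.29% to 14.1% H3K27me3. SALL1, a kidney progenitor factor, and SCNN1B, a subunit of the epithelial sodium channel, had no EZH2 in their windows in WT and 3.17% and 2.97% in KO. Counted over the whole gene with 5 kb on both sides, SALL1 had 1 EZH2 peak in WT and 2 in KO, and SCNN1B 1 and 5. Of 49 developmental factors 13 and 16 were marked by H3K27me3, and EZH2 marked 18 and 19. SOX9, of cartilage and testis, went from 6.62% H3K27me3 to none and EZH2 from 8.35% to 4.27%, and INSM1, of endocrine cells, went from 4.22% to no H3K27me3. TBX21, of T helper cells, went from 6.21% to 11.9% H3K27me3.

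Of 38 genes of keratins and their associated proteins on chromosome 17, H3K27me3 marked 9 in WT and 7 in KO and EZH2 7 (18.4%) and 2 (5.26%), with EZH2 lower at 7 and higher at none, where EZH2-marked genes were fewer in KO over all genes too. KRT25 had 2.95% H3K27me3 and 3.35% EZH2 in WT and neither in KO. KRT24, close to KRT25, and KRT9, much farther along the chromosome, had H3K27me3 in KO only. Of 51 neuronal genes 14 and 16 were marked by H3K27me3 and 14 and 11 by EZH2. KCNJ2, a potassium channel gene, had 5.52% and 1.37% H3K27me3. Of 25 signalling genes 3 and 5 were marked by H3K27me3, and 5 in each genotype by EZH2. WNT9B went from 1.44% to no EZH2 in its window, with 8 and 1 EZH2 peaks over the whole gene with 5 kb on both sides. DLL3, a Notch ligand, went from 0.835% to 2.90%. Of 14 Polycomb, NEXT and exosome genes 3 and 2 were marked by H3K27me3. CBX2 went from 1.06% to 6.72% H3K27me3 and CBX7 from 3.41% to none, while EZH2 was lower in KO at CBX8 (8.56% and 5.97%), all 3 encoding Polycomb proteins.

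The remaining lists were almost free of both antibodies. At the 10 genes of the HOXB cluster neither antibody had a peak in the window of 5 kb. Of 45 housekeeping genes 2 had H3K27me3 in WT and none did in KO, and for EZH2 these numbers were none and 1. Of 255 zinc finger genes on chromosome 19, H3K27me3 marked none in WT and 2 in KO, ZNF222 (1.23%) and ZNF180 (0.965%), and EZH2 2 and 1. Chromosome 19, with 1410 protein-coding genes, had the fewest H3K27me3 peaks of the 5 chromosomes after removal of its gene-free stretch, 211 in WT and 266 in KO.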

How the data were processed

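The 4 peak lists analysed come from 4 of the 6 samples (H3K27me3 and EZH2, WT and KO); for the 2 inputs no file was analysed here. Samples were grouped by their labelled genotype and antibody. Cutadapt 1.9.3, Bowtie2 2.2.4 and hg38 are named in the submitters' processing notes; the sources used here name no peak caller and no depth. Of 6 unnamed columns per list, column 5 is the peak length in bp and column 6 a score that the authors deposited without defining it in these sources. Scores only rank or filter peaks. The peak names carry 1e-3. Peaks were listed on up to 26 identical lines and were counted once.

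Peaks were assigned to 1-Mb bins by midpoint. Genes were the 19839 protein-coding genes of the RefSeq table (GRCh38.p14) on chromosomes 1 to 22 and X; 135 whose position lies on other scaffolds were left out. A gene's window is 5 kb around both ends, merged where they meet. Promoters were matched by gene ID, for 3288 genes of the 5 chromosomes. Python 3.11.15, NumPy 2.4.6, pandas 2.3.3, SciPy 1.17.1 and matplotlib 3.10.9 were used. No test between genotypes was made, since each group has 1 library. In simulated lists of 3037 H3K27me3 and 3040 EZH2 bins, 200 of 200 bins changed 3-fold were recovered in each direction. These lists were the WT list and a copy thinned in bins well above the minimum of peaks, with all other peaks identical. Recovery under a 1.5-fold rule was thus nearly fixed in advance. The run checks the counting only and says nothing about the reliability of calls between separate libraries.

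The chromosomes, the gene lists, the settings and the rule for named items were chosen with earlier results of these data known. Per chromosome the rule took the 3 bins with the largest H3K27me3 gain and the 1 with the largest deficit; over all 5 the 5 EZH2 gains and 3 deficits; per antibody the 12 genes with the largest excess and the 8 with the largest deficit of covered share, with neighbours in 1 window named once; of each of 10 lists the 2 members with the largest excess and the 2 with the largest deficit; up to 2 genes per named bin. A selection of these is printed. Runs of raised bins, gene spans, score clusters, promoters and the chromosome 20 block (the longest run of 100-kb steps with at least 5 KO H3K27me3 peaks each in its gene-free stretch) were added after their values were seen. Base composition of peaks was planned but not analysed here, as no genome sequence was used.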

Additional observations from a re-analysis of the deposited data

How the results depend on the processing

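No paired analysis was possible because each group has 1 library. Scores may not mean the same in the WT and KO lists, read depth is unknown here, and single bins rest on few peaks, so the values below show how far each count depends on its settings; the cause of each shift was not tested. Of the alternative values, 75 stayed within the counting interval, or within 1.5 times for a count, 63 left it and 4 crossed a ratio of 1. The H3K27me3 ratio of 1.22 was 1.04 with scores of 5 or more, 0.508 with 7 or more and 0.301 with 10 or more. It was 1.72 with lists of equal size, 1.17 with identical lines kept, 1.27 without chromosome 17, 1.16 without chromosome 20 and 1.16 without the gene-free stretches (added after seeing the data). The EZH2 ratio of 0.851 was 0.684, 0.287 and 0.386 at those 3 score limits, 1.29 with lists of equal size, 1.46 for peaks of 500 bp or more, 0.962 for covered length and 0.757 without the gene-free stretches.

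Of the 67 bins with H3K27me3 raised, 37 were left with scores of 5 or more in both lists, counted over again, and 8 with 7 or more. The number was 147 with lists of equal size, 117 in bins of 500 kb, 41 in bins of 2 Mb, 32 with a fold of 2 and 131 relative to the genome-wide ratio. The 23 lowered bins became 51 and 145 at the score limits, 9 with lists of equal size, 54 and 9 in bins of 500 kb and 2 Mb, 15 with the minimum of peaks doubled, 11 with a fold of 2, 11 relative to the genome-wide ratio and 14 without chromosome 17. The 49 bins with EZH2 raised became 9 with scores of 7 or more, 91 with lists of equal size, 86 and 19 in bins of 500 kb and 2 Mb, 31 with the minimum doubled and 91 relative to the genome-wide ratio. The 108 with EZH2 lowered became 48 with lists of equal size, 63 in bins of 2 Mb, 66 with the minimum doubled and 58 relative to the genome-wide ratio. The 20 bins with both raised became 9 and 5 at the score limits, 59 with lists of equal size, 36 and 7 in bins of 500 kb and 2 Mb, 7 with a fold of 2 and 52 relative to the genome-wide ratio.

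Where an overlap had to reach 50% of the shorter peak, the shared WT H3K27me3 peaks were 15.2%, the shared WT EZH2 peaks 4.59%, and the EZH2 peaks on H3K27me3 7.57% in WT and 13.8% in KO. Peaks within 500 bp gave 34.7%, 11.4%, 18.0% and 27.7%, and scores of 7 or more 13.1% and 5.35% for the shared peaks and 20.4% for EZH2 on H3K27me3 in KO. Windows of 2 kb around gene ends gave 243 and 256 genes marked by H3K27me3 in WT and KO and 208 and 158 by EZH2. Whole genes with 5 kb on both sides gave 623 and 448 for EZH2. Scores of 7 or more gave 381 genes with H3K27me3 in WT and 194 in KO, the reverse of the main direction, and 299 and 85 with EZH2.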
